A study of Mus musculus with 4 samples.

Results

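The 10 genes described here encode the PGC-1 coactivators and the factors that work with them to build mitochondria, and they were taken by gene symbol from a table of 45777 genes. They are Ppargc1a, Ppargc1b and Pprc1 (the coactivators PGC-1α, PGC-1β and PRC), Perm1 (a muscle regulator that acts with PGC-1 and the ERRs), Esrra, Esrrb and Esrrg (the nuclear receptors ERRα, ERRβ and ERRγ), Nrf1 (nuclear respiratory factor 1), Gabpa (the DNA-binding subunit of GABP, also called nuclear respiratory factor 2) and Tfam (the factor that packages mitochondrial DNA and starts its transcription). RNA sequencing was done on myotubes of C2C12, a mouse myoblast line whose cells fuse into multinucleate muscle cells, kept in DMEM with 2% horse serum. There were 4 groups with 1 library each: myotubes given clenbuterol (a β2-adrenergic agonist that raises cyclic AMP), a control for clenbuterol, myotubes under EPS (taken to mean electrical pulse stimulation, under which myotubes contract) and a control for EPS. Both controls and the library titled EPS also list 30 ng/ml clenbuterol in their treatment field, so treatment was taken from the titles. The sources used here state neither durations nor pulse settings.

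Titles and data names disagree in the EPS pair: values named for the control sit in the record with the EPS title, and values named for EPS sit in the record with the EPS control title. Libraries go by their titles here, and should the data names be the right ones, each direction in the EPS pair is the opposite. With 1 library a group there is no replicate, so no test between conditions was possible and differences are given by size. Total estimated counts were between 32640884 and 35597074 per library. CPM, the usual depth-scaled unit, is the estimated count divided by the library total after TMM scaling, and folds are ratios of CPM with a 95% interval that covers counting error only. A gene counted as higher or lower from 1.5-fold, if it had at least 20 estimated counts in 1 library of the pair. All 9 myotube markers checked had a TPM of at least 1 in every library. Of 7 adipocyte markers only Dio2 and Cebpa reached 1 TPM, and Ucp1, Adipoq and Plin1 were listed at 0 in all 4 libraries. Of 6 immune and endothelial markers only Cd68 reached 1 TPM, and Ptprc and Adgre1 were listed at 0 in all 4.

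As background, PGC-1 coactivators do not bind DNA themselves. They dock on transcription factors such as the ERRs, nuclear respiratory factor 1 and GABP, and together these raise nuclear genes of the respiratory chain and Tfam, which carries the programme into the mitochondrion. In muscle, exercise and cyclic AMP are both known to raise transcription of Ppargc1a, in part through CREB, the factor that binds cyclic AMP response elements.

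The promoters of 3 of the genes are shown because their values bear on the results: that of Ppargc1a, the gene furthest above its control with clenbuterol, and those of Gabpa and Tfam, which held nearly the same level in all 4 libraries. Each runs from 250 bases before to 50 bases after a RefSeq start site of build GRCm38.p6, on the strand of the gene. They lie at chr5:51567676-51567975 on the minus strand (Ppargc1a), chr16:84834874-84835173 on the plus strand (Gabpa) and chr10:71237995-71238294 on the minus strand (Tfam). The Ppargc1a window lies inside the span the files give for the gene, which reaches further upstream to 52115853. The window does not cover transcripts that start further upstream, and which start the Ppargc1a transcripts used was not tested. Capitals mark the motif matches.
Ppargc1a: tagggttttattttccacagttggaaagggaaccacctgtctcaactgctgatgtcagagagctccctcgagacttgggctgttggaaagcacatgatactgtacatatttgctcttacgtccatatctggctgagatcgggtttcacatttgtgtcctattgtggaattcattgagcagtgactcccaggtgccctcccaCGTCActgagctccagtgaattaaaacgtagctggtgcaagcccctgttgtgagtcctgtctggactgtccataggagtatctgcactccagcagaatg
Gabpa: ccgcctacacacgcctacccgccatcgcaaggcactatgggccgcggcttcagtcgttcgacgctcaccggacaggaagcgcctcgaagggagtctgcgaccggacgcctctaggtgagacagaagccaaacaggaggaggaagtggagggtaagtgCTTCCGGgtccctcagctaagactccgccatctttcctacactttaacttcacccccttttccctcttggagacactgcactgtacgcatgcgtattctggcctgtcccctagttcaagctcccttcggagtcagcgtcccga
Tfam: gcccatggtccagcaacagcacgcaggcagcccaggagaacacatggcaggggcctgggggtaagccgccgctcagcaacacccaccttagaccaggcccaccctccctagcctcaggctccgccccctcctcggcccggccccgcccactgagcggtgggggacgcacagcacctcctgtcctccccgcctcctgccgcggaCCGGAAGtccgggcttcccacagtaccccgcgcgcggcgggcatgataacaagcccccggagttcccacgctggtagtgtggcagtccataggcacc

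The table held promoters for 9 of the 10 genes, in 14 windows of 300 bases. Both strands were searched for the full cyclic AMP response element TGACGTCA and its part TGACG, the NRF1 core GCATGCGC and the full NRF1 site, which is GC followed by that core, the GABP site CCGGAAG, the ERR site AAGGTCA and a MEF2 site of CTA, TTTT and TAG in a row. The shorter cyclic AMP and NRF1 motifs lie inside the longer ones. The Ppargc1a window held the short element as its reverse complement CGTCA, starting 49 bases before the start site, and not the full element. The short element was in 20.8% of all 32851 promoter windows, and the full one in 1.79%. Tfam held the GABP site 47 bases before its start and Gabpa held it as CTTCCGG 93 bases before its own, a motif found in 8.86% of windows. Esrra held GCATGCGC 34 bases before its start (2.71% of windows), and Perm1 held the ERR site as TGACCTT 202 bases before its start (4.72%). The window of Esrrb that starts at 86360867 on chromosome 12 held the short cyclic AMP element at 158 and 117 bases before the start. The windows of Pprc1, Nrf1 and Esrrg held none of these motifs, nor did the other window of Esrrb, and the full cyclic AMP, full NRF1 and MEF2 motifs (the last 2 in 0.971% and 0.11% of all windows) were in none of the 14. Only these exact letters were searched, so a site spelled otherwise, of MEF2 or another factor, would be missed. These matches describe letters and say nothing of binding.

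The genes fell into an abundant and a scarce set. In TPM, which is scaled to transcript length and so can be compared between genes, Gabpa was the highest, at 40.3 with clenbuterol, 40.6 in its control, 42.8 under the EPS title and 41.9 under the EPS control title. Esrra, Pprc1, Nrf1 and Tfam lay between 16.7 and 28.6 TPM in the 4 libraries. Ppargc1b and Esrrg lay between 1.39 and 3.57 TPM, and Esrrb between 0.479 and 1.42. Ppargc1a and Perm1 were the scarcest, with Ppargc1a between 0.256 and 1.69 TPM and Perm1 between 0.0761 and 0.223. The genes that differed by 1.5-fold within either pair were all in the scarce set. These genes also had fewer counts than the abundant set, which widens the counting spread of a ratio. The share of calls by level over all genes was not computed, so nothing is read from this.

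**Figure D1:**
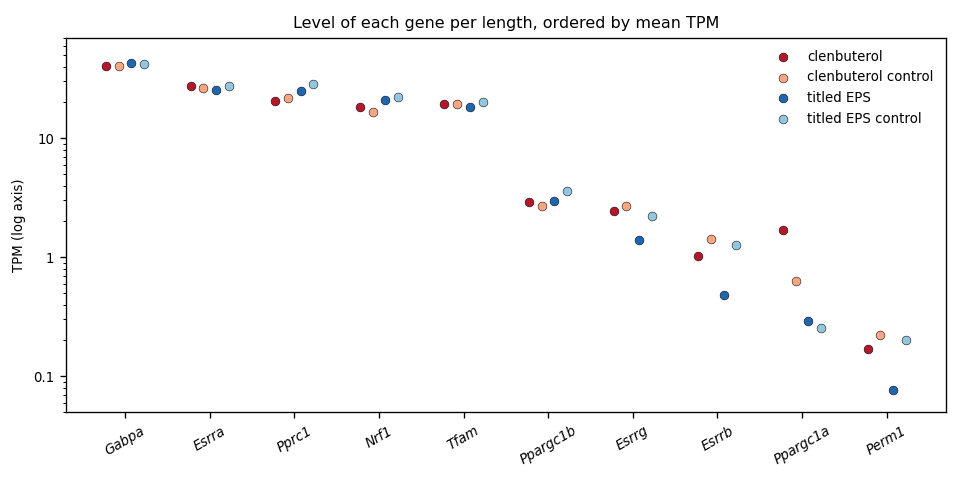
Level of each gene in TPM (log axis) in the 4 libraries, with genes ordered by mean TPM; each point is 1 library. Gabpa, Esrra, Pprc1, Nrf1 and Tfam sit above 16 TPM in all 4, and the other genes below 4.

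The first comparison asked which of these genes differed in myotubes given clenbuterol. Of the 9 genes with enough counts, only Ppargc1a was at least 1.5-fold higher and none was lower. Over all 14159 genes tested, 3.51% were higher and 3.32% lower, and nothing more is read from a count of 1 in 9. The median log2 ratio of the 9 genes was 0.00, against 0.01 over all genes. The counting interval left out 1 for Ppargc1a and Esrrb, 2 of 9, against 32.1% of all genes.

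Ppargc1a, which encodes the coactivator most tied to exercise, lies on mm10 chromosome 5 at 51454249 to 52115853 on the minus strand. It had 156 estimated counts with clenbuterol against 85 in the control, 38 under the EPS title and 36 under the EPS control title. In CPM these were 4.79 and 2.54, then 1.05 and 1.10. The clenbuterol library was the highest and its control came next, while the EPS pair lay lowest and close together. With clenbuterol the gene was 1.89-fold higher than in the control (1.44 to 2.49), short of 2-fold, the other size of a call that was tried. The deposited TPM gave a larger ratio, 2.66-fold, from 1.69 and 0.633 TPM. The TPM ratio was thus 1.41 times the CPM ratio, a gap at least as wide as that in only 0.835% of 14133 genes.

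The 2 controls also differed in this gene. In CPM, Ppargc1a was 2.30-fold higher in the clenbuterol control than under the EPS control title (1.54 to 3.50), where 7.76% of 14223 genes were at least 1.5-fold higher. Against the library titled EPS, the clenbuterol control was 2.41-fold higher (1.63 to 3.64), and 9.14% of 14266 genes were higher. The intervals of the step between the controls and of the step with clenbuterol overlap in CPM. Both steps use the clenbuterol control library, so this overlap does not show whether the steps were alike. In TPM the step between the controls was 2.47-fold, against 2.66-fold with clenbuterol, so the order of the 2 steps depends on the unit. The sources used here do not say whether the 2 pairs were cultured together. Summed TPM of the 9 myotube markers was 29925 with clenbuterol, 29751 in its control, 20341 under the EPS title and 24267 under the EPS control title, so the sum was also higher in both libraries of the clenbuterol pair. By gene, 8 of the 9 had a higher TPM in both of those libraries than in either library of the EPS pair, and Acta1 did not. Summed TPM of 6 myoblast markers was 274 with clenbuterol, 194 in its control, 155 under the EPS title and 122 under the EPS control title. Myod1, Id1 and Id3 had a higher TPM in both libraries of the clenbuterol pair than in either of the EPS pair, Myf5 and Ccnd1 had a lower one, and Pax7 was mixed. The share of all genes with the same order of the pairs was not computed, so nothing is read from these counts of markers. With clenbuterol 2 of the 6 were higher than in the control, Pax7, the satellite cell factor gene, at 1.94-fold (1.42 to 2.69) and Id3, an inhibitor of myogenic factors, at 3.27-fold (2.95 to 3.62). Over the 6, 4 had a ratio above 1 and 2, Myf5 and Ccnd1, below 1. Their median log2 ratio was 0.05, against 0.01 over all genes. Most of the gap in the sum came from Id3, at 116 TPM with clenbuterol and 35.9 in the control. The part of these markers in the Ppargc1a difference was not tested, and in bulk RNA fewer myotubes and less RNA per myotube cannot be told apart.

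**Figure D2:**
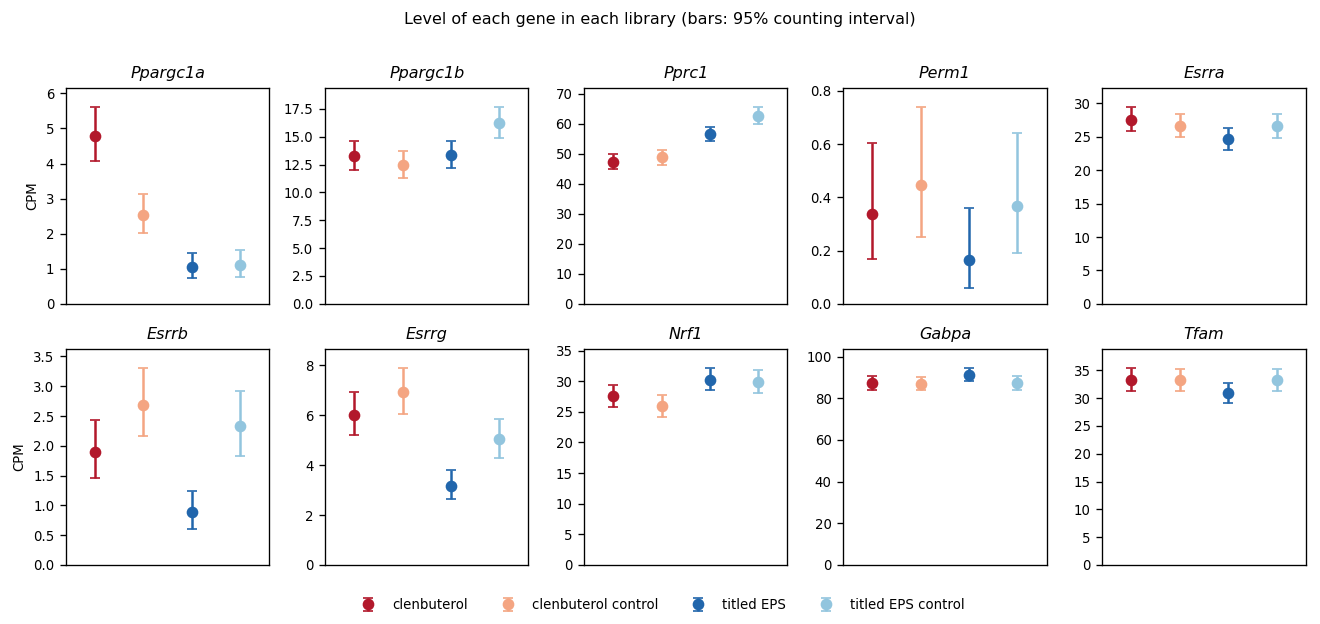
CPM of each gene in the 4 libraries (1 panel a gene, each y axis from 0); points are single libraries and bars are 95% counting intervals. Ppargc1a steps down from clenbuterol to its control to the EPS pair, Esrrb and Esrrg are lowest under the EPS title, and Gabpa is nearly level.

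The other coactivators did not share the Ppargc1a pattern. Ppargc1b, on chromosome 18 at 61291445 to 61400756, encodes PGC-1β, which keeps up basal mitochondrial genes. It had 432 counts with clenbuterol against 417 in the control, 483 under the EPS title and 529 under the EPS control title. Its CPM ratio with clenbuterol was 1.07 (0.930 to 1.22). The clenbuterol pair overlapped within counting error, and the library titled EPS control was the highest of the 4. Pprc1, on chromosome 19 at 46056526 to 46072909, encodes PRC, a coactivator that serum growth signals induce. Its CPM was 47.4 with clenbuterol, 48.7 in the control, 56.5 under the EPS title and 62.7 under the EPS control title, a ratio of 0.972 with clenbuterol (0.907 to 1.04). Both libraries of the EPS pair stood above both of the clenbuterol pair, opposite to Ppargc1a.

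PRC transcripts made up most of the family. In TPM, Pprc1 held 81.8% of the family total with clenbuterol against 86.7% in the control, and 88.5% and 88.2% under the EPS and EPS control titles. Ppargc1a held 6.67% with clenbuterol against 2.54% in the control, and 1.02% and 0.789% under the EPS and EPS control titles. Ppargc1b held between 10.5% and 11.5% in all 4. The family total was 25.3 TPM with clenbuterol and 24.9 TPM in the control, so the higher Ppargc1a level was a small part of the sum.

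Perm1, on chromosome 4 at 156203262 to 156221307, did not reach 20 counts in any library. It had 11 counts with clenbuterol (exact Poisson 95% interval 5.49 to 19.7), 15 in the control (8.40 to 24.7), 6 under the EPS title (2.20 to 13.1) and 12 under the EPS control title (6.20 to 21.0). All 4 intervals overlap, so no difference in this muscle regulator was detectable at this depth. AW011738 and Gm46877 lie within its span on the same strand and had between 7 and 17 counts, so reads of such low number could also be divided among these loci.

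Among the estrogen-related receptors, Esrra, on chromosome 19 at 6910977 to 6922048, was level. ERRα is the receptor through which PGC-1α is best known to raise respiratory genes in muscle, and it can raise its own gene. Esrra had 898 counts with clenbuterol against 893 in the control, 890 under the EPS title and 869 under the EPS control title. Its ratio was 1.03 with clenbuterol (0.942 to 1.14). It held between 86.5% and 93.1% of the ERR family total in TPM, which was 30.8 TPM with clenbuterol and 30.7 in the control. Trmt112 overlaps its end on the opposite strand with 866 to 1101 counts, and since the use of strand in counting is not stated, reads there cannot be told apart.

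Esrrb and Esrrg, the scarcer receptors, lay lower with clenbuterol but within 1.5-fold. Esrrb had 62 counts with clenbuterol against 90 in the control, a ratio of 0.709 (0.505 to 0.991) that only just left out 1. Esrrg, whose product drives oxidative and slow-fibre genes in mouse muscle, had 196 counts with clenbuterol against 232 in the control, a ratio of 0.870 (0.715 to 1.06). For the DNA-binding factors downstream the pair was level. Nrf1 had a ratio of 1.06 (0.968 to 1.17), Gabpa 1.00 (0.952 to 1.06) and Tfam 1.00 (0.921 to 1.09). These intervals, which cover counting error only, leave out a 1.2-fold ratio between these libraries in either direction for each of the 3 genes.

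**Figure D3:**
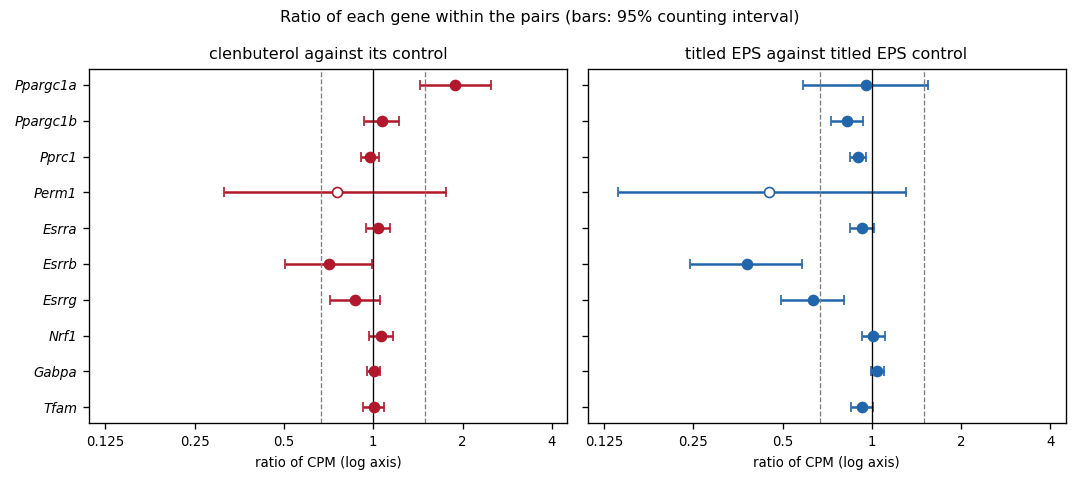
Ratio of CPM of each gene (log axis) for clenbuterol against its control and for the library titled EPS against the library titled EPS control, with 95% counting intervals; dashed lines mark 1.5-fold either way and open points genes under 20 counts. Ppargc1a lies to the right of the 1.5-fold line with clenbuterol, and Esrrb and Esrrg lie to the left of it under the EPS title.

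The second comparison asked which of these genes differed in the EPS pair. By title, Esrrb and Esrrg were lower under the EPS title, 2 of 9 genes, and none was higher. Over all 14206 genes tested, 5.72% were at least 1.5-fold lower and 4.25% higher. The ratio was below 1 for 7 of the 9, against 48.7% of all genes, with a median log2 ratio of −0.11 against 0.01 over all genes. The counting interval left out 1 for 4 of 9 (Ppargc1b, Pprc1, Esrrb and Esrrg), against 50.8% of all genes. If the data names are right, Esrrb and Esrrg were higher under EPS.

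Esrrb, on chromosome 12 at 86361117 to 86521628, encodes ERRβ, best known from placenta, stem cells and the inner ear. It had 32 counts under the EPS title and 76 under the EPS control title, and 62 and 90 in the clenbuterol library and its control. The library titled EPS was the lowest of the 4 and no step between neighbours among the other 3 left out 1, although clenbuterol and its control, the ends of those 3, did differ beyond counting error. By title the gene was 2.63-fold lower (1.72 to 4.11). Esrrg, on chromosome 1 at 187608510 to 188214885, had 115 counts under the EPS title and 164 under the EPS control title. In CPM these were 3.18 and 5.03, against 6.02 with clenbuterol and 6.92 in its control. Again the library titled EPS was apart and lowest, at 1.58-fold lower by title (1.24 to 2.02). The Esrrg call was lost with TPM plus 1 (a ratio of 0.739), with FPKM plus 0.1 (0.686) and with 2-fold as the size of a call. Set against the clenbuterol control instead, Esrrb was 3.03-fold higher in that control than under the EPS title (2.01 to 4.70) and Esrrg 2.18-fold higher (1.73 to 2.75). Myotube markers lay the same way: 8 of 9 had a ratio below 1 by title, where 48.7% of all genes had one. Their median log2 ratio was −0.40, against 0.01 over all genes. The genes of skeletal actin (Acta1) and perinatal myosin (Myh8) were 1.55-fold and 1.65-fold lower by title. Of the 6 myoblast markers, 5 had a ratio above 1 by title, each with an interval above 1. Over all genes, the interval left out 1, either way, for 50.8%. The median log2 ratio of the 6 was 0.35. Id1 was 1.90-fold higher and Pax7, the sixth, 1.81-fold lower. The part of these markers in the Esrrb and Esrrg differences was not tested.

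Ppargc1a did not differ detectably in this pair, at a ratio of 0.953 (0.588 to 1.55) on 38 and 36 counts. The interval reaches past 1.5-fold, so depth limits what can be said of this gene. Its TPM stood the other way, at 0.291 under the EPS title and 0.256 under the EPS control title. Ppargc1b and Pprc1 were slightly lower by title, at 1.21-fold (1.07 to 1.38) and 1.11-fold (1.04 to 1.18), both short of 1.5-fold. Esrra was 1.08-fold lower (0.984 to 1.19) and Tfam 1.08-fold lower (0.990 to 1.17), both with intervals that include 1. Nrf1 had a ratio of 1.01 (0.927 to 1.10) and Gabpa of 1.04 (0.993 to 1.10).

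Across all 4 libraries, the ratio of the highest to the lowest library left out 1 for Ppargc1a, Ppargc1b, Pprc1, Esrra, Esrrb, Esrrg and Nrf1. A step between neighbours in the order of levels did so for Ppargc1a, Ppargc1b, Pprc1, Esrrb and Esrrg. The highest and lowest library were picked after ranking, which widens the gap, and the share over all genes was not computed. Nothing is therefore read from how many genes differed in this way. For Gabpa, Tfam and the low-count Perm1 even the highest and the lowest library overlapped: the ratio was 1.05 (0.997 to 1.10) for Gabpa and 1.08 (0.991 to 1.17) for Tfam. Gabpa, on chromosome 16 at 84834891 to 84863783, had 2839, 2914, 3297 and 2850 counts in the libraries of clenbuterol, its control, titled EPS and titled EPS control. Its start lies within the span of Atp5j, which runs on the opposite strand and had 3243 to 3977 counts. Tfam, on chromosome 10 at 71225468 to 71238328, had 1085, 1114, 1117 and 1086 counts in the same order. Nrf1, on chromosome 6 at 30047985 to 30153458, had 897, 868, 1094 and 976 counts. It stood highest under the EPS title, at 30.3 CPM, and lowest in the clenbuterol control, at 25.9 CPM. No step between neighbours in that order left out 1, while the ratio of the highest to the lowest was 1.17 (1.07 to 1.28). The library titled EPS was the lowest of the 4 for 5 of the 9 genes, Ppargc1a, Esrra, Esrrb, Esrrg and Tfam, where 26.1% of 14548 genes had their lowest level in that library. The library titled EPS control was the lowest for none of the 9, against 26.6% of those genes. Only for Esrrb and Esrrg did the step from the library titled EPS to the next one leave out 1. That step was 1.05 (0.647 to 1.70) for Ppargc1a, 1.08 (0.984 to 1.19) for Esrra and 1.08 (0.989 to 1.17) for Tfam. In TPM, Ppargc1a was lowest under the EPS control title instead. Nothing is therefore read from these counts of lowest libraries.

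By pattern over the 4 libraries, the genes most like Ppargc1a were Dusp5, Tcim, Fgl2, Dlx3 and Irx3. Likeness was the Euclidean distance between log2 CPM values centred on the mean of each gene, ranked over 11735 genes in 4 libraries. Dusp5, a phosphatase of ERK kinases, was the closest at a distance of 0.0753, with 937 counts with clenbuterol, 529 in its control, 221 under the EPS title and 217 under the EPS control title. The next, Tcim, stood at a distance of 0.344 and the fifth, Irx3, at 0.442. With only 4 libraries such a match describes these samples and no more.

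Genes around the PGC-1 pathway were read in 7 lists, where 3.51% of all genes were higher and 3.32% lower with clenbuterol. Of 22 upstream regulators (AMPK subunits, p38 kinases, CREB and CRTC factors, MEF2 factors and others) none was higher and 1 was lower. That was Camk4, at 14 against 23 counts with an interval that includes 1, named here after its values were seen. Mef2d, which binds the Ppargc1a promoter, was the highest with at least 100 counts, at 1.16-fold (1.13 to 1.20), and the AMPK subunit gene Prkab2 the lowest, at 1.24-fold lower. Of 16 partner factors none reached 1.5-fold, with Ppard and Rxra, partner nuclear receptors, at 1.20-fold and 1.18-fold higher. Of 9 repressors none reached it either, and the highest was Nrip1, the corepressor RIP140, at 1.28-fold (1.17 to 1.39) on 1211 and 977 counts. The list medians were −0.06, 0.01 and 0.06 in log2, against 0.01 over all genes.

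None of 22 genes of mitochondrial DNA transcription and replication, of 22 import genes or of 14 fusion, fission and cristae genes reached 1.5-fold, and the medians were −0.02, −0.01 and −0.02 in log2. Mgme1, a nuclease of mitochondrial DNA, was the lowest of these with at least 100 counts, at 1.40-fold lower on 173 and 250 counts. Of 26 muscle targets of PGC-1α and ERRα, only Vegfa, the vascular growth factor gene, was called, at 2.31-fold higher (2.24 to 2.38) on 13920 and 6215 counts. Cox7a1, the muscle form of a cytochrome oxidase subunit, was next with at least 100 counts, at 1.38-fold higher (1.08 to 1.76), and Pdk4, the kinase that shuts off pyruvate dehydrogenase, was 1.19-fold lower. The median of the 26 was 0.01.

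In the EPS pair, by title, the calls in the 7 lists are set beside 4.25% higher and 5.72% lower over all genes. Of the upstream list 1 of 22 was higher, Camk4 at 39 against 23 counts with an interval that includes 1 (also named after its values were seen), and Mef2d was the lowest at 1.35-fold lower. Partner factors had a ratio below 1 in 13 of 16 genes, where 48.7% of all genes tested had one, with a median log2 ratio of −0.13 and Rxra, the dimer partner of PPARs, the lowest at 1.27-fold lower, but none reached 1.5-fold. Repressors (median −0.05), import genes (0.04) and fusion, fission and cristae genes (0.04) had no calls. In the mitochondrial DNA list, whose median was 0.07, Mterf1b was 1.94-fold lower (1.44 to 2.63). Its near-identical copy Mterf1a had a ratio of 1.15 (0.860 to 1.53), with an interval that includes 1. The authors' counting may have divided reads between the copies, which was not tested. Of 25 targets 2 were lower and none higher. They were Slc2a4, the insulin-responsive glucose transporter gene, at 19 against 28 counts and Ckmt2, the mitochondrial creatine kinase gene, at 49 against 69, both named after their values were seen. With at least 100 counts, Fndc5, the gene of the irisin precursor, was the highest at 1.40-fold and Pdk4 the lowest at 1.42-fold lower, and the list's median was 0.00.

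**Figure D4:**
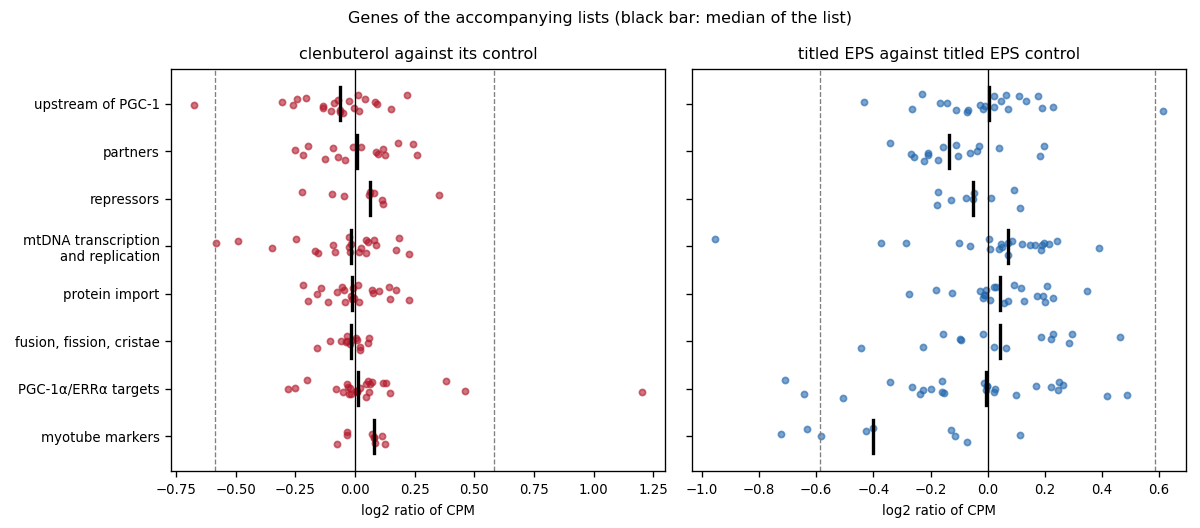
Log2 ratio of CPM of the tested genes of 7 lists around the PGC-1 pathway and of the myotube markers, for clenbuterol against its control and for the library titled EPS against the library titled EPS control; each point is a gene, black bars are medians and dashed lines mark 1.5-fold. Medians of the 7 lists lie between −0.13 and 0.07, and that of the myotube markers in the EPS pair at −0.40.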

How the data were processed

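The authors deposited 1 table with estimated read counts, FPKM and TPM of every gene, and per library a table of coverage (a signal), FPKM and TPM. Reads were aligned with HISAT2 to mm10, per the submitters' processing notes. Libraries came from a strand-specific TruSeq kit, per the labels' protocols. The sources used here name neither the counting program nor the annotation, nor whether counting used strand. TPM in both kinds of table was equal within 0.001 for all 10 genes. Estimated counts, which are whole numbers as deposited, were scaled by TMM (edgeR 4.0.16, R 4.3.3). Ratios have exact Clopper-Pearson 95% intervals, and single counts exact Poisson ones (Python 3.11.15, scipy 1.17.1). If mates were counted singly, the intervals are too narrow. The ratio code was tested on simulated data. Alternatives were DESeq2 1.42.0 size factors, library totals, TPM, FPKM, no filter and a 2-fold size. The genes, the lists and the rules were chosen with earlier results of these data known. Named list genes are up to 2 highest and 2 lowest ratios per list among genes with at least 100 counts in 1 library of the pair. The comparison between controls was added after the values were seen. Promoters are from RefSeq, GRCm38.p6, the assembly also called mm10.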

Additional observations from a re-analysis of the deposited data

How the results depend on the processing

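With 1 library a group, a difference between cultures and a treatment effect cannot be told apart, and intervals cover counting error only. No paired analysis was possible because no group has a replicate. Ppargc1a stayed between 1.64-fold (TPM plus 1) and 2.44-fold (TPM plus 0.1) higher with clenbuterol under the 5 other scalings. With 2-fold as the size of a call, 0 of the 9 genes were higher with clenbuterol and 1 was lower by title in the EPS pair. With no filter, 3 were lower by title in the EPS pair. The added gene was Perm1, at a ratio of 0.451 (0.139 to 1.30) on 6 and 12 counts. With TPM plus 1 or FPKM plus 0.1, 1 was lower in the EPS pair: Esrrb stayed past 1.5-fold (0.649 and 0.493) and Esrrg did not (0.739 and 0.686). Set against the libraries titled EPS control and titled EPS, chosen as baselines after the data were seen, Ppargc1a with clenbuterol was 4.34-fold and 4.56-fold higher. Some other ratios lay on the other side of 1 with these baselines. In the same order, the ratio was 1.20 and 1.89 for Esrrg, 0.921 and 0.910 for Nrf1, and 0.818 and 0.993 for Ppargc1b. Against the clenbuterol control the counting intervals of Esrrg, Nrf1 and Ppargc1b included 1, so no direction was set there to change. The interval also included 1 for Esrrg and Nrf1 against titled EPS control, and for Ppargc1b against titled EPS. For Esrrb the ratio was 0.817 (0.575 to 1.16) and 2.15 (1.38 to 3.41), against 0.709 (0.505 to 0.991) with the clenbuterol control. Of these genes, only Esrrb had intervals on opposite sides of 1. Shares over all genes were not computed for these baselines. Over all genes, 208 were called higher and 159 lower with clenbuterol, and 217 higher and 459 lower in the EPS pair, with TPM plus 1. These were 2938, 2966, 3121 and 3246 with no filter, and 211, 167, 238 and 317 at 2-fold, against 497, 470, 604 and 812 as reported.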
